A study of Mus musculus with 6 samples.

Results

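The genes described here make, break down and sense prostaglandins, and their RNA was compared between SF1 and control uteri. Members were 10 listed genes, read from every probe set that the platform annotation gave to 1 of them alone. Ptgs1, the constitutive cyclooxygenase gene, had no such probe set in the table used here and was not analysed. The other 9 genes (Ptgs2, Ptges, Ptgis, Ptgir, Ptger2, Ptger3, Ptger4, Pla2g4a and Hpgd) had 15 probe sets, out of 18193 genes and 45037 probe sets tested.

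The series measured total RNA of uterine horns from C57BL6J mice on a whole-genome Affymetrix array. The SF1 group (3 arrays) had the genotype Pgrcre/+ SF1LsL/+, a transgene for the steroidogenic nuclear receptor SF1 that is switched on by Cre from the Pgr locus, and so in cells that express the progesterone receptor. The control group (3 arrays) had the genotype SF1LsL/+, the same transgene without Cre. Each array held a pool of RNA from 2 uteri, taken without the cervix 2 weeks after a surgery whose kind the labels do not give, and the ages of the mice are not given in the sources used here. Since the Cre allele was carried by the SF1 group alone, Cre, its effect on the Pgr locus and SF1 cannot be told apart.

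Prostaglandins are made in steps. A phospholipase A2 frees arachidonic acid from membranes, a cyclooxygenase turns it into prostaglandin H2, and a terminal synthase makes the active product, such as prostaglandin E2 (Ptges) or prostacyclin (Ptgis). Each product acts through receptors coupled to G proteins, and 15-hydroxyprostaglandin dehydrogenase (Hpgd) ends the signal. In the mouse uterus these lipids are known for their parts in implantation, decidualization, blood flow and contraction of the muscle wall.

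Median intensities were 149.9 to 159.6 on the SF1 arrays and 159.0 to 162.2 on the control arrays. Pgr read 1719 to 2027 on the SF1 arrays and 4744 to 4899 on the control arrays, a log2 difference of -1.34 ± 0.09 (SE, n = 3 arrays per group; limma adjusted p = 3.23e-05). Nr5a1, the mouse gene for SF1, read 151.3 ± 0.13 in SF1 and 151.7 ± 17.4 in control uteri (SD, n = 3), but where its probe sets lie relative to the transgene is not stated, so these readings check no label. SF1 replicate 2 stood apart in inflammatory genes, with S100a8 at 11518 there and at 327 and 192 in SF1 replicates 1 and 3, against 112, 75.2 and 337 in control replicates 1 to 3.

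Of the 15 probe sets, 6 passed the test, 2 higher and 4 lower in SF1. This is 40.0% of them, where 14.0% of all probe sets were called (5.88% higher and 8.08% lower). The members were chosen with earlier results of these data known, so these shares are a description and no test. All 6 were among the brighter 22519 probe sets. Fitted alone, these had 2486 called higher and 3692 lower, and 2 and 4 of the 9 member probe sets among them. The 6 called probe sets belong to 5 genes. Ptgis and Ptgir, the synthase and the receptor of prostacyclin, were higher in SF1, and Pla2g4a, Ptger4 and Ptger2 were lower. No probe set of Ptgs2, Ptges, Ptger3 or Hpgd was called (0 at an unadjusted p under 0.05 in limma). The median log2 difference was -0.13 over the 15 probe sets and -0.07 over all probe sets. Calls are at an adjusted p under 0.05 from limma, fitted to log2(intensity + 16) over all probe sets, and n is 3 arrays per group throughout. Among all probe sets on the array, 2650 were called higher and 3641 lower, but 3000 and 2754 after quantile normalization and 3169 and 2440 after median centring. The groups did not overlap for these 6 probe sets and overlapped for the other 9, where 36.7% of all probe sets did not overlap.

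**Figure D1:**
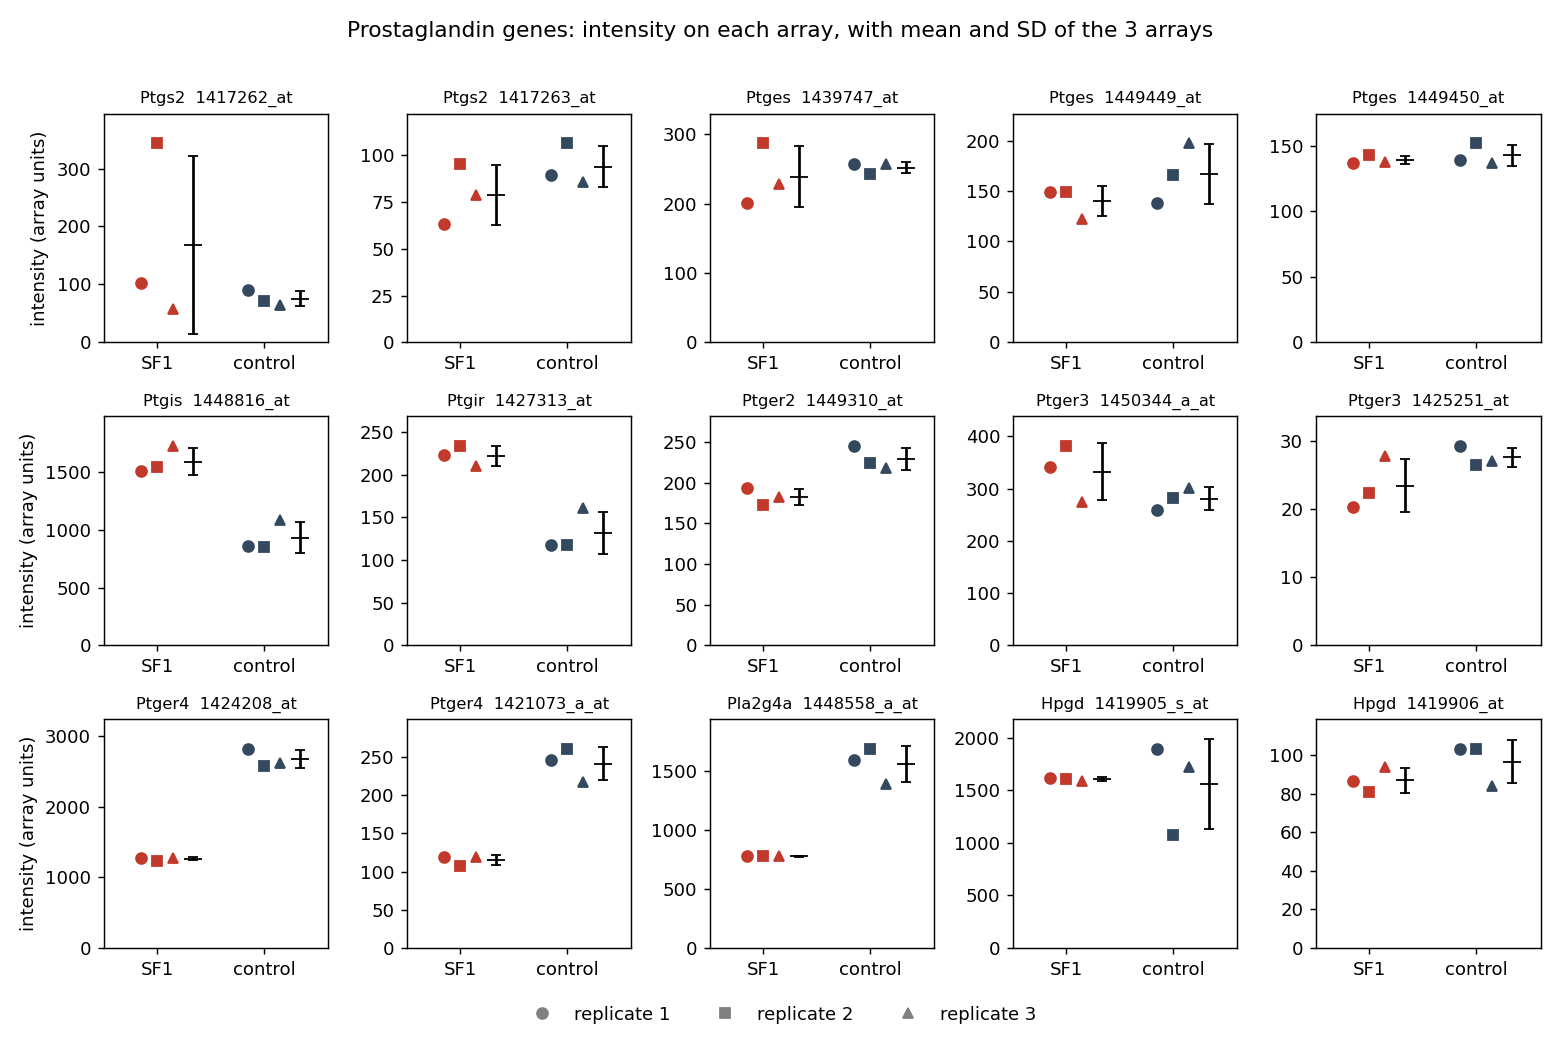
Intensity in array units of the 15 probe sets on each array, SF1 (red) left and control (dark) right, with the mean and SD of the 3 arrays beside the points and every axis starting at 0. Ptgis and Ptgir read higher and Ptger2, Ptger4 and Pla2g4a lower on all SF1 arrays than on any control array, and the other probe sets overlap.

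**Figure D2:**
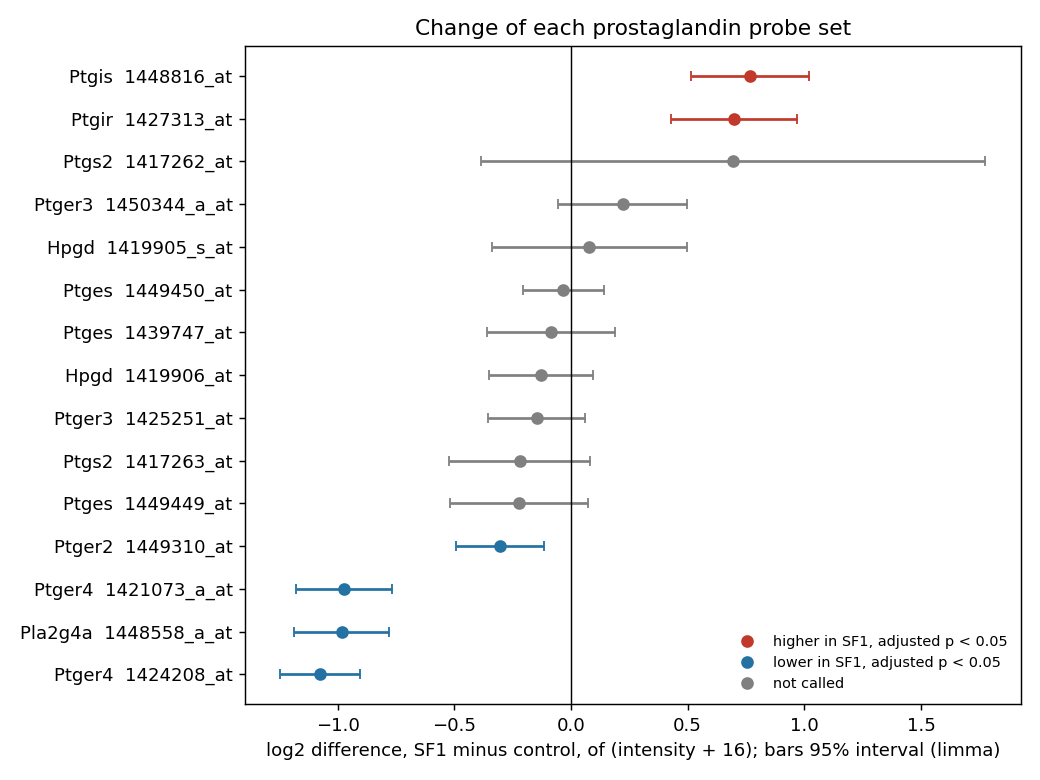
Log2 difference, SF1 minus control, of each probe set with its 95% interval from limma, red and blue where the adjusted p was under 0.05. Both Ptger4 probe sets and Pla2g4a lie near -1, Ptgis and Ptgir near 0.7, and the brighter Ptgs2 probe set has the widest interval, -0.38 to 1.78.

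The release of arachidonic acid comes first. Pla2g4a encodes the cytosolic phospholipase A2 that frees arachidonic acid for the cyclooxygenases. It read 776, 783 and 777 in SF1 replicates 1 to 3, against 1598, 1686 and 1391 in control replicates 1 to 3. The SF1 arrays lay within 1.01-fold of each other and all below the control arrays, which spanned 1.21-fold. The log2 difference was -0.98 ± 0.09 (SE; 95% interval -1.19 to -0.78; limma adjusted p = 0.000195), so that intensity in SF1 was 0.506 of that in control. The call held without each array in turn, with differences of -1.06 to -0.92.

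Ptgs2, the inducible cyclooxygenase gene, had 2 probe sets that did not move together. The brighter one, 1417262_at, read 103, 343 and 58.2 in SF1 replicates 1 to 3, against 89.9, 71.6 and 64.5 in control replicates 1 to 3. SF1 replicate 2 was high, SF1 replicate 1 was slightly above and SF1 replicate 3 slightly below all control arrays. The log2 difference was 0.70 ± 0.47 (SE; 95% interval -0.38 to 1.78; limma adjusted p = 0.358), and 0.05 (adjusted p = 0.895) without SF1 replicate 2. The other probe set, 1417263_at, read 63.1, 95.1 and 78.5 in SF1 and 89.6, 106 and 85.5 in control uteri, with a difference of -0.22 (95% interval -0.52 to 0.08; adjusted p = 0.299). Both lay below the middle of all probe sets in brightness, at the 42nd and 31.6th percentiles of mean intensity.

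The array with the high Ptgs2 reading was also the one with high cytokine and neutrophil genes. Il1b, an inducer of Ptgs2 in many cells, read 1239 in SF1 replicate 2 and 248 and 230.2 in SF1 replicates 1 and 3, against 226 to 235 in control uteri. Lcn2, an acute-phase gene also made by uterine epithelium, read 11672 in SF1 replicate 2 and 5307 and 3351 in SF1 replicates 1 and 3, against 428 to 578 in control uteri. None of the 8 measured neutrophil markers was called in the limma fit (0 at an unadjusted p under 0.05), none was at 0, and their summed intensity was 843 to 23091 in SF1 and 663 to 1109 in control uteri. Their part in the Ptgs2 reading was not tested.

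**Figure D3:**
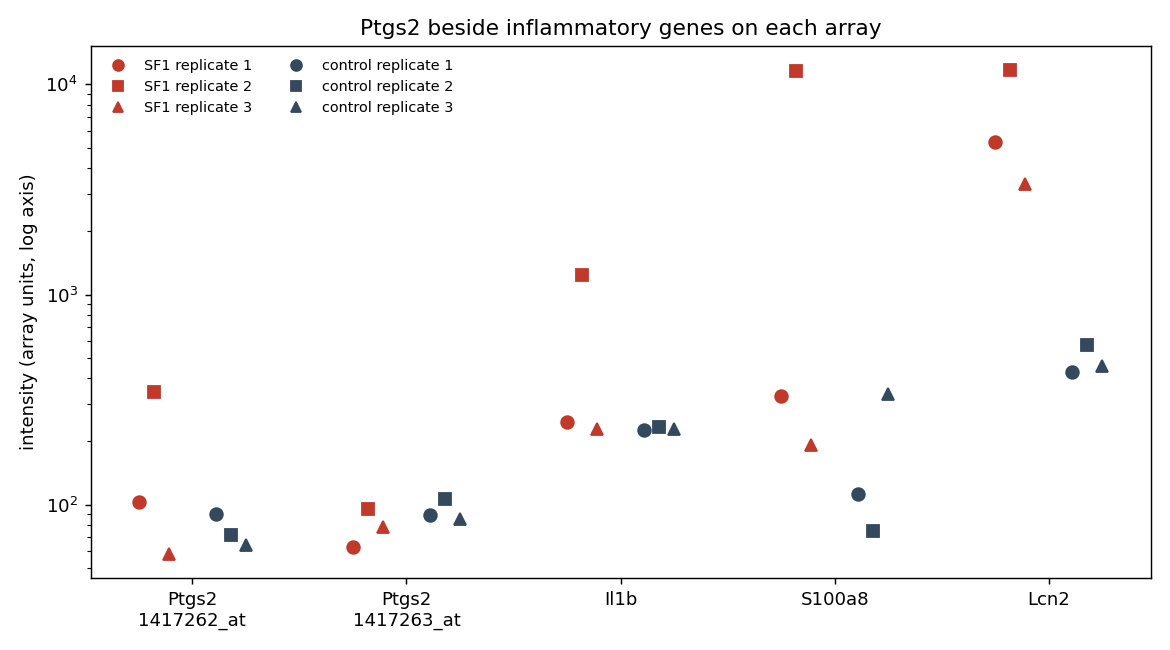
Intensity on a log axis of both Ptgs2 probe sets, Il1b, S100a8 and Lcn2 on each array, SF1 (red) left and control (dark) right within each gene. SF1 replicate 2 (red squares) is the highest array for Ptgs2 1417262_at, at 343, and for Il1b, S100a8 and Lcn2, but not for Ptgs2 1417263_at, where control replicate 2 read 106.

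The terminal synthases differed in what they showed. Ptges encodes microsomal prostaglandin E synthase, the inducible enzyme that acts downstream of Ptgs2. Its brightest probe set read 201, 287 and 228 in SF1 replicates 1 to 3 and 256, 242 and 257 in control replicates 1 to 3, so the groups overlapped. Its log2 difference was -0.09 (95% interval -0.36 to 0.19; limma adjusted p = 0.662). The remaining 2 probe sets gave -0.22 (-0.52 to 0.07; adjusted p = 0.284) and -0.03 (-0.21 to 0.14; adjusted p = 0.808).

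Ptgis, the prostacyclin synthase gene, was the member with the largest called rise. It read 1509, 1544 and 1726 in SF1 replicates 1 to 3, against 859.8, 856 and 1086 in control replicates 1 to 3. Every SF1 array was above every control array, and in each group replicate 3 was the highest. The log2 difference was 0.77 ± 0.11 (SE; 95% interval 0.51 to 1.02; limma adjusted p = 0.0025), or 1.70-fold. It was 0.71 to 0.88 without each array in turn, and was called each time.

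Within an array, Ptges minus Ptgis on the log2 scale was lower by 0.85 in SF1, at -2.67 ± 0.27 in SF1 and -1.82 ± 0.17 in control uteri (SD, n = 3). This gives no order of their levels, since probe sets of different genes are not on a common scale. The exact permutation p was 0.1 (two-sided, adjusted p = 0.15 over 3 such differences), the smallest that 3 against 3 arrays can give.

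Ptgir encodes the prostacyclin receptor, which raises cyclic AMP and relaxes smooth muscle. It read 223, 234 and 210.2 in SF1 replicates 1 to 3, against 117, 118 and 161 in control replicates 1 to 3. All SF1 arrays were above all control arrays, with control replicate 3 again the highest of its group. The log2 difference was 0.70 ± 0.12 (SE; 95% interval 0.43 to 0.97; limma adjusted p = 0.00563), a 1.62-fold rise called without each array in turn. Markers of the vessel lining, where prostacyclin is known to be made, were lower. All 10 endothelial markers fell, none was at 0, and their summed intensity was 4827 to 5444 in SF1 and 7621 to 7976 in control uteri. Of 10 smooth muscle markers 0 were higher and 1 lower in the limma fit (1 and 2 at an unadjusted p under 0.05), with sums of 39891 to 42018 in SF1 and 38196 to 40788 in control uteri. Over all genes 8.45% were called higher and 8.11% lower. Of 6 mesothelial markers none was called (0 at an unadjusted p under 0.05) and 4 overlapped between the groups. Their sums did not overlap, at 4234 to 4451 in SF1 and 3652 to 4039 in control uteri. Wt1, the brightest of these markers, weighed most in the sums, at 2681 to 2697 in SF1 and 2196 to 2672 in control uteri. The part of these cell types in the prostacyclin genes was not tested, and in whole uterus fewer cells of a type and less RNA per cell cannot be told apart.

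Among the prostaglandin E2 receptors, Ptger4 fell most. It encodes EP4, which like EP2 raises cyclic AMP. Its brighter probe set read 1268, 1237 and 1278 in SF1 replicates 1 to 3, against 2816, 2584 and 2622 in control replicates 1 to 3. The other probe set read 119, 108 and 119 in SF1 and 247, 260.4 and 218 in control uteri, so on both probe sets the groups were far apart compared with their spread. The log2 differences were -1.07 ± 0.08 (SE; 95% interval -1.24 to -0.90; limma adjusted p = 5.2e-05) and -0.97 ± 0.09 (-1.18 to -0.77; adjusted p = 0.000212). Without each array in turn the brighter probe set gave -1.10 to -1.04.

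Ptger2, the gene for EP2, gave a smaller difference. It read 193, 173 and 182 in SF1 replicates 1 to 3, against 245, 224 and 218 in control replicates 1 to 3. The groups did not overlap, and the log2 difference was -0.30 ± 0.08 (SE; 95% interval -0.49 to -0.12; limma adjusted p = 0.0424). This call was lost without any 1 of the 6 arrays (adjusted p = 0.0621 to 0.127), after quantile normalization (adjusted p = 0.107) and after median centring (0.121). Within an array, Ptger2 minus Ptger4 was higher by 0.77 in SF1, at -2.69 ± 0.06 in SF1 and -3.46 ± 0.03 in control uteri (SD, n = 3; exact permutation p = 0.1, adjusted p = 0.15).

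Ptger3 encodes EP3, which lowers cyclic AMP and is known for contraction of the myometrium. Its brighter probe set read 342, 381 and 275 in SF1 and 259, 282 and 302 in control uteri, overlapping, with a log2 difference of 0.22 (95% interval -0.05 to 0.50; adjusted p = 0.256 by limma). The other probe set was dim, at 20.2 to 27.7 in SF1 and 26.4 to 29.2 in control uteri, in the lowest 5.3% of mean intensities, and gave -0.15 (-0.35 to 0.06; adjusted p = 0.312).

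Markers of other cells differed beside these receptor and phospholipase genes, where 8.45% of all genes were called higher and 8.11% lower. Of 10 endometrial stroma markers 0 were higher and 6 lower (0 and 6 also at an unadjusted p under 0.05 in limma), and their summed intensity was 44347 to 48067 in SF1 and 53073 to 55697 in control uteri. EP4 is also known to act in macrophages, of whose 10 markers 8 were higher and 0 lower (8 and 0 also unadjusted), with sums of 9648 to 13727 in SF1 and 5555 to 7963 in control uteri. Of 9 uterine epithelium markers 4 were higher and 1 lower (19609 to 21695 in SF1 and 16768 to 17631 in control uteri). Of 8 markers of oviduct and ciliated cells 5 were higher and 1 lower, with sums of 5999 to 9278 in SF1 and 1711 to 1871 in control uteri. The lower one was Ovgp1, an oviduct gene (log2 difference -0.73, limma adjusted p = 0.00888). The higher ones were the ciliated cell genes Foxj1, Dynlrb2, Rsph4a, Ccdc153 and Tmem212, with log2 differences of 0.88 to 5.32. Pax8 (-0.19) and Dnah5 (0.23) were not called. Of 8 ovary markers 1 was higher and 1 lower, and of 6 fat cell markers 0 were higher and 1 lower (0 and 4 unadjusted). The lower gene of the ovary list, Foxl2, was the brightest of its list, at 743 to 833 in SF1 and 1716 to 1898 in control uteri. The higher one, Inha, read 246 to 266 in SF1 and 130 to 154 in control uteri. The other 6 genes of the ovary list were not called and read 71.9 to 283 in control uteri. Whether the Foxl2 reading came from ovary or from cells of the uterus was not tested. No marker of these lists was at 0. Their part in the falls of Ptger4 and Pla2g4a was not tested.

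**Figure D4:**
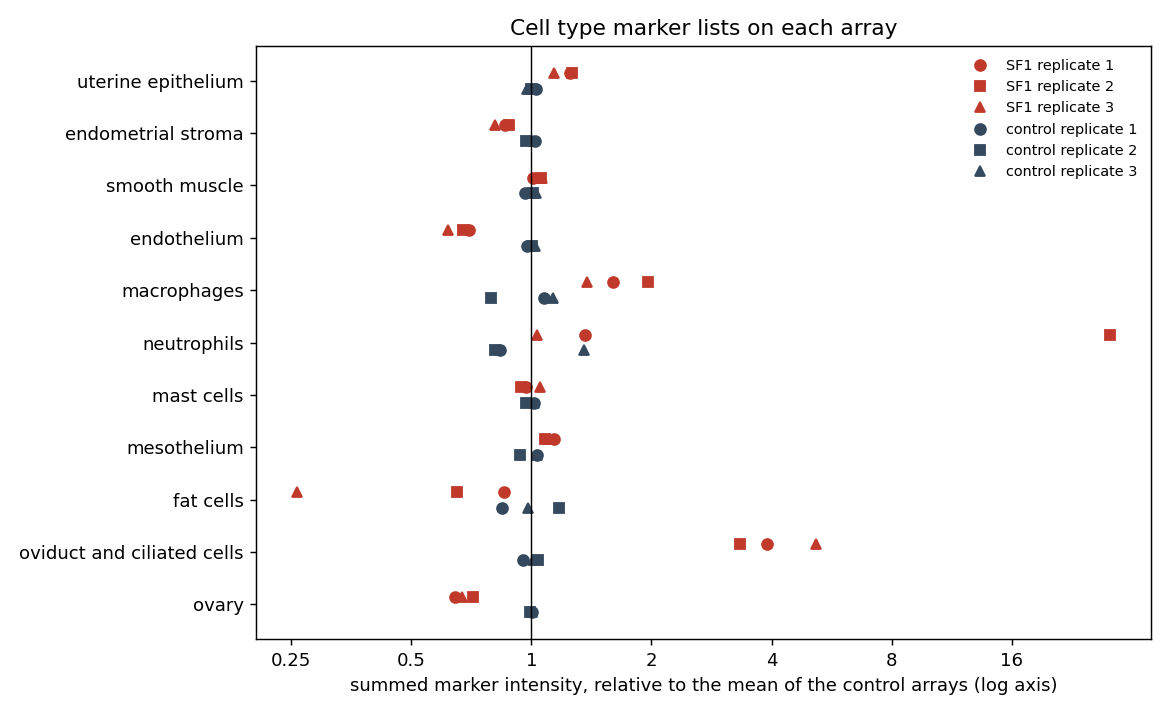
Summed intensity of each cell type marker list on each array, divided by the mean of the control arrays, on a log axis with SF1 (red) above control (dark). Endothelial, stromal and ovary sums lie below control on all SF1 arrays, epithelial, macrophage, mesothelial and ciliated cell sums above it, and the neutrophil sum of SF1 replicate 2 stands far above all other arrays, as the fat cell sum of SF1 replicate 3 stands below. In the ovary list Foxl2 alone was called lower, and as its brightest marker it weighs most in that sum. Wt1 weighs most in the mesothelial sum, and none of the 6 mesothelial markers was called.

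Hpgd, the gene of the enzyme that inactivates prostaglandins E2 and F2 alpha, was not called. Its brighter probe set, of a type that can be shared by transcripts of different genes, read 1619, 1609 and 1587 in SF1 replicates 1 to 3 and 1889.6, 1078 and 1719 in control replicates 1 to 3. The SF1 arrays lay within the range of the control arrays, which spanned 1.75-fold with control replicate 2 low. That probe set differed by 0.08 on the log2 scale (95% interval -0.34 to 0.50; adjusted p = 0.802 by limma), and -0.17 without control replicate 2 (adjusted p = 0.277). The other probe set gave -0.13 (-0.35 to 0.10; adjusted p = 0.413). Ptgs2 minus Hpgd within an array was -3.46 ± 1.16 in SF1 and -4.08 ± 0.40 in control uteri (SD, n = 3; exact permutation p = 0.7, adjusted p = 0.7). That difference of 0.62 became -0.03 without SF1 replicate 2.

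The promoters of the members that changed most are shown because the genes moved in opposite directions, Ptger4 and Pla2g4a lower and Ptgir higher in SF1. Each is the 250 bases before the gene's start in RefSeq (GRCm38.p6), 5' to 3' on the gene's strand, with capitals for the motif letters found. Pla2g4a has 2 starts in the table, and the first listed is shown. Ptgis had no entry.
Ptger4, chr15:5244188-5244437, minus strand: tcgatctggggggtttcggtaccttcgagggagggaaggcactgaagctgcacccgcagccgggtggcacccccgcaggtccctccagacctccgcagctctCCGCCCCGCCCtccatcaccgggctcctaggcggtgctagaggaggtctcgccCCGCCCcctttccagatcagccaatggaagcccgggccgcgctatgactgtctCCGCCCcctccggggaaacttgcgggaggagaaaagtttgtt
Pla2g4a, chr1:149961291-149961540, minus strand: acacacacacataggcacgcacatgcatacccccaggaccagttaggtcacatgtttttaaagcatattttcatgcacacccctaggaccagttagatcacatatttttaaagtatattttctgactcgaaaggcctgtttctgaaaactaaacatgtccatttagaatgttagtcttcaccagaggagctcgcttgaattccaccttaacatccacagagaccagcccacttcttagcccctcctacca
Ptgir, chr7:16906240-16906489, plus strand: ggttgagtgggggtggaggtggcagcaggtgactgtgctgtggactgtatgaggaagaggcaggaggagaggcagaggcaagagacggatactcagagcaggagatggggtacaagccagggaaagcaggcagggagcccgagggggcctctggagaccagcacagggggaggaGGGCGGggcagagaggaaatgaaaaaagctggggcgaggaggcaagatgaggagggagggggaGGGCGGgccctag

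Both strands were searched for AAGGTCA, the core to which SF1 and its relatives bind, AGAACA, a half-site of the progesterone and glucocorticoid receptors, TGACG, a cyclic AMP half-site, TATAAA, the TATA box, and GGGCGG, the Sp1 box. AAGGTCA contains AGGTCA, a half-site shared by many nuclear receptors, which was not searched for alone and does occur in the first Pla2g4a window. The full AAGGTCA was in none of the windows of the 9 listed genes with an entry, and in 4.08% of 32851 promoter windows of the same length. Ptger4 held 4 Sp1 boxes, 2 of them sharing a base, and Ptgir held 2, where 32.7% of all windows held at least 1. The Sp1 box was also in the windows of Ptgs2, Ptges, Ptger3 and Hpgd, which were not called. The first Pla2g4a window held none of the 5 motifs. AGAACA, found in 16.1% of all windows, was in those of Ptger2, Ptges, Ptgs1 and the second Pla2g4a start. These matches describe the letters of these windows alone.

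Genes whose profile over the 6 arrays was most like that of Ptgis, by Euclidean distance of centred log2 values, were Wnt4 (0.14), Aldh3b1 (0.19), Agt (0.19), Efhb (0.21) and Pcdh8 (0.22). Wnt4, a Wnt ligand gene of decidualization, read 1216, 1289 and 1420 in SF1 replicates 1 to 3, against 669, 700 and 805 in control replicates 1 to 3. As with Ptgis, replicate 3 was the highest of each group. Those most like Ptger4 were Ramp3 (0.10), a subunit gene of adrenomedullin receptors, Cd34 (0.12), Irs1 (0.15), Lama3 (0.16) and Kif5a (0.17). Ramp3 read 245, 233 and 239.8 in SF1 replicates 1 to 3, against 528, 530.4 and 522 in control replicates 1 to 3. The search covered 16308 genes, and genes alike by this measure share the difference between the 2 groups.

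Beyond the members, 8 lists held 77 further genes of the pathway, of which 71 were measured. Of these 9 were higher, 12 lower and 50 not called, where 8.45% of all genes were higher and 8.11% lower (limma, adjusted p under 0.05, each gene by its brightest probe set). The median log2 difference was 0.04 over these genes and -0.05 over all genes. The higher count was 4 without SF1 replicate 1, SF1 replicate 2 or control replicate 1, and the lower count was 6 without SF1 replicate 1.

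The phospholipases A2 other than Pla2g4a numbered 18, with 2 higher, 2 lower and 14 not called. This count and those of the lists below stand beside 8.45% of all genes called higher and 8.11% lower. The largest fall among them was that of Pla2g10, a secreted enzyme, which read 102, 106 and 108 in SF1 replicates 1 to 3, against 559.7, 866 and 639 in control replicates 1 to 3. Its log2 difference was -2.51 ± 0.14 (SE; limma adjusted p = 1.96e-05), with the control uteri 5.70-fold above SF1. Pla2g5 (0.54, adjusted p = 0.0171) and Pla2g2d (0.43, adjusted p = 0.0428), also secreted, were higher, and Pla2g2a was lower (-0.36, adjusted p = 0.0145). When the 6 arrays were left out in turn, Pla2g5 missed the threshold 4 times, Pla2g2d 5 times and Pla2g2a 1 time, with adjusted p of up to 0.0674, 0.117 and 0.0557. The higher count was then 0 without SF1 replicate 1, SF1 replicate 2 or control replicate 1, and 1 without each of the others.

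Of 7 other prostanoid synthases, 1 was higher, 1 lower and 5 not called. Ptgds, the lipocalin-type prostaglandin D synthase gene, read 580.3, 728 and 609 in SF1 and 444, 413 and 480.5 in control uteri, without overlap. Its log2 difference was 0.50 (limma adjusted p = 0.0153), and 0.97 on its other probe set (adjusted p = 0.000486). Hpgds, which makes the same product in mast cells and other blood-derived cells, read 94.3, 119.9 and 113 in SF1 and 147, 159 and 156 in control uteri, a difference of -0.45 (adjusted p = 0.0166). Without control replicate 1 Ptgds had an adjusted p of 0.0529, and without control replicate 3 Hpgds had one of 0.0503. Of 10 mast cell markers 5 were higher and 1 lower, with none at 0 and sums of 5692 to 6318 in SF1 and 5828 to 6132 in control uteri. The lower marker, Gata2, was the brightest and weighed most in these sums, at 2789 to 2994 in SF1 and 3948 to 4051 in control uteri. The higher markers were Cpa3, Cma1, Mcpt4, Kit and Fcer1a, with log2 differences of 0.52 to 1.34. The part of mast cells in Hpgds was not tested. Ptges2, Tbxas1, Prxl2b, Akr1c18 and Cbr1 lay between -0.07 and 0.19.

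Among 5 other prostanoid receptors, Ptgfr alone was called. It encodes the prostaglandin F2 alpha receptor of the contracting myometrium, and read 175, 223 and 211 in SF1 replicates 1 to 3, against 402, 426 and 358 in control replicates 1 to 3. Its log2 difference was -0.91 ± 0.11 (SE; limma adjusted p = 0.000828). Of its 4 other probe sets 3 were also lower (-0.80, -1.35 and -0.89), and the fourth, at 46.8 to 68.8 over all arrays, gave 0.09 (adjusted p = 0.629). Ptger1, Ptgdr, Ptgdr2 and Tbxa2r lay between -0.12 and 0.05.

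Of 4 genes of transport and breakdown, Abcc4 was lower and Ptgr1 higher. Abcc4, an exporter of prostaglandins and cyclic nucleotides, read 799, 896 and 807 in SF1 replicates 1 to 3, against 1529.98, 1859 and 1493 in control replicates 1 to 3, a log2 difference of -0.95 ± 0.10 (SE; limma adjusted p = 0.000539). Ptgr1, which reduces the 15-keto product of Hpgd and also inactivates leukotriene B4, read 898, 1044 and 826 in SF1 and 642, 538 and 584 in control uteri (0.63 ± 0.11; adjusted p = 0.00573). The groups overlapped for neither gene, and both calls held without each array in turn. Slco2a1, the uptake carrier, was at -0.08 and Ptgr2 at 0.07, neither called.

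**Figure D5:**
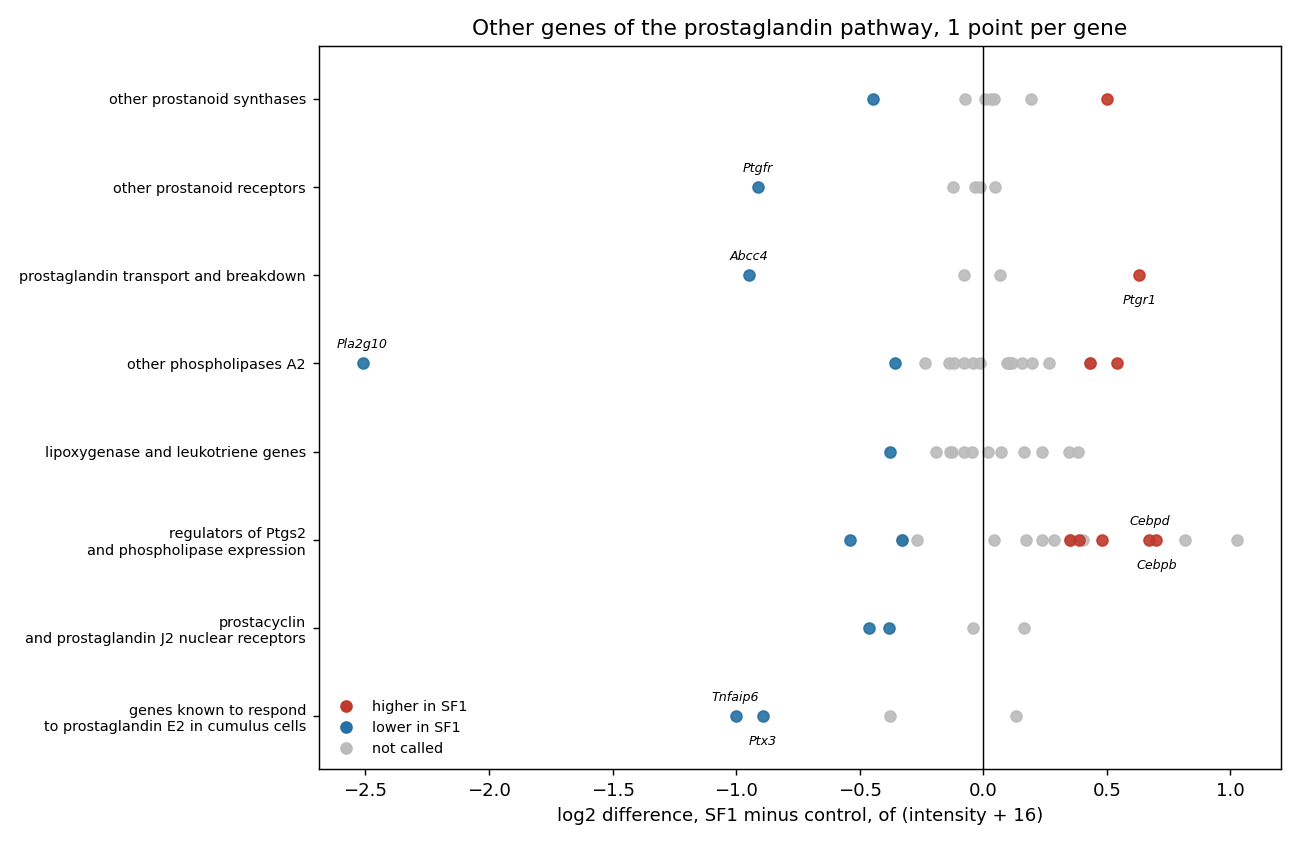
Log2 difference, SF1 minus control, of the 71 measured genes of 8 further lists, 1 point per gene, with called genes in red (higher) or blue (lower) and those beyond 0.55 on either side named. Pla2g10 lies at -2.51, and Ptgfr, Abcc4, Tnfaip6 and Ptx3 between -1.002 and -0.89.

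Genes that respond to prostaglandin E2 in ovarian cumulus cells were measured as a list of 4, of which 0 were higher, 2 lower and 2 not called (0 and 3 at an unadjusted p under 0.05 in limma). Tnfaip6, which crosslinks hyaluronan, read 128, 169.7 and 126 in SF1 replicates 1 to 3, against 301, 290.2 and 296 in control replicates 1 to 3 (log2 difference -1.002 ± 0.11, SE; limma adjusted p = 0.000599). Ptx3, a pentraxin gene of the same matrix, read 50.5, 70.3 and 49.97 in SF1 and 119, 129.9 and 106 in control uteri (-0.89 ± 0.12; adjusted p = 0.00193). In both, SF1 replicate 2 was the highest of its group and still below all control arrays. Has2, a hyaluronan synthase gene, was at -0.38 (adjusted p = 0.0522), and its other probe set at -0.40 was called (adjusted p = 0.0133).

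Regulators of Ptgs2 and phospholipase expression had 5 of 17 higher, 2 lower and 10 not called (5 and 4 at an unadjusted p under 0.05 in limma). Without SF1 replicate 2 the called counts were 2 higher and 1 lower, without SF1 replicate 1 they were 2 and 0, and over all 6 arrays left out in turn they were 2 to 4 higher and 0 to 1 lower. With the replicate number as a block they were 3 and 1. The lower count was 4 with the filter to brighter probe sets, with trended and robust moderation and with a pseudocount of 64. It was 3 after quantile normalization and 1 after median centring. Cebpb and Cebpd, transcription factors that act on Ptgs2, were higher by 0.70 (limma adjusted p = 0.0123) and 0.67 (adjusted p = 0.0128), each highest in SF1 replicate 2. With that array left out both were called, but Cebpd was not when its probe sets were averaged (adjusted p = 0.374). The other Cebpd probe set had the opposite sign, at -0.33 (95% interval -0.64 to -0.01; limma adjusted p = 0.155), and that of Cebpb was at 0.39 (adjusted p = 0.112). Egr1, another such factor, was higher by 0.48 (adjusted p = 0.0176), and not called without either replicate 1 or replicate 2 of SF1 (adjusted p up to 0.0597). Nfkbia, an inhibitor gene of NF-kappaB (0.39, limma adjusted p = 0.042), and Tnfrsf1a, a TNF receptor gene (0.35, adjusted p = 0.0322), were the remaining higher genes, and lost their calls 6 and 5 times when the 6 arrays were left out in turn (adjusted p up to 0.106 and 0.101). The lower genes were Tsc22d3 (-0.54, adjusted p = 0.02), a glucocorticoid-induced gene, and Creb1 (-0.33, adjusted p = 0.0267), each of which missed the threshold 5 times when the 6 arrays were left out in turn (adjusted p up to 0.0777 and 0.0905). No other Creb1 probe set was called (-0.12 to 0.04). Of the other Tsc22d3 probe sets 1 was called lower (-0.55, limma adjusted p = 0.0241), and the rest were uncalled at -0.15 and 0.15. With the probe sets of each gene averaged, 4 of the 17 regulators were higher and 0 lower.

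Nuclear receptors for prostacyclin and prostaglandin J2 had 0 of 4 higher and 2 lower (0 and 2 also at an unadjusted p under 0.05 in limma). Rxra, their partner, was at -0.46 (limma adjusted p = 0.0224) and Pparg at -0.38 (adjusted p = 0.0489), calls that were lost 4 and 5 times when the 6 arrays were left out in turn. Without SF1 replicate 1, 2 or 3 the count of lower genes was 0, and without a control replicate it was 1. Pparg also missed the threshold after quantile normalization, after median centring, with array weights and with a pseudocount of 1 (adjusted p = 0.0647 to 0.0861), which left 1 lower, and with the replicate number as a block both genes did (adjusted p = 0.0965 for Pparg and 0.056 for Rxra). Ppard, the receptor linked to prostacyclin in the implanting uterus, was at 0.17 (adjusted p = 0.271). Ppara was at -0.04 on its brightest probe set (limma adjusted p = 0.841). Its other probe sets were at 0.37, called higher (adjusted p = 0.0427), and at 0.25, not called (adjusted p = 0.181). Of 12 lipoxygenase and leukotriene genes 0 were higher (1 at an unadjusted p under 0.05) and 1, Alox15, was lower (-0.38, limma adjusted p = 0.0306), a call lost 5 times in the same way. After quantile normalization or median centring 1 of these genes was called higher. The same count came with trended and robust moderation, with array weights, with a pseudocount of 64 and without control replicate 3.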

How the data were processed

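The labels name a 1-colour Affymetrix GeneChip Mouse Genome 430 2.0 array with biotin label. The authors deposited 1 linear intensity per probe set and array. The authors' software, background correction and normalization are not given in the sources used here, and a subtracted background would bear most on dim probe sets.

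Of 45101 probe sets, 64 control probe sets were left out. Symbols came from the platform annotation: 34945 tested probe sets had 1, 932 several and 9160 none. Other pathway and marker genes were represented by the probe set with the highest mean. The fit used log2(value + 16) in limma 3.58.1 (lmFit, eBayes; R 4.3.3), with Benjamini-Hochberg adjustment over 45037 probe sets. Such fold changes understate the change of dim genes. Within-array differences used exact permutation tests (scipy 1.17.1), and figures matplotlib 3.10.9. The planned difference Ptgs2 minus Ptgs1 was not computed. The fit was tested on simulated arrays.

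The members and lists were chosen with earlier results of these data known. Named genes were all members, Pgr, up to 3 called genes in each direction per list, the 5 genes nearest to the member with the largest rise and fall, Lcn2 and S100a8. Nr5a1, Il1b, Nfkbia, Tnfrsf1a, the cell type markers given by name and the uncalled genes of the lists were named after their values were seen. Alternatives covered scaling, filter, pseudocount, moderation, array weights, replicate block, call rule and each array left out. The pools are separate per the labels, with no word on shared processing, so p-values measure the spread between these arrays, whose number limits the precision. Same-numbered arrays did not deviate together (correlations -0.06, -0.10 and -0.18), so the numbers were not taken as pairs.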

Additional observations from a re-analysis of the deposited data

How the results depend on the processing

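The calls of Ptgis, Ptgir, Pla2g4a and both Ptger4 probe sets held in all 14 alternatives of each, 8 of which kept all 6 arrays. Ptger2 lost its call after quantile normalization (-0.25), median centring (-0.25), the replicate block (-0.30) and a pseudocount of 1 (-0.33), and without each array in turn (-0.34 to -0.26). The cause was not tested. Member probe sets called lower then numbered 3 in place of 4, and those called higher 2 throughout.

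Of the 9 uncalled member probe sets 3 turned sign, and the other 6 kept theirs in all alternatives run. Ptges 1449450_at gave 0.023 after quantile normalization, 0.019 after median centring and -0.058 to 0.0088 without 1 array. Ptges 1439747_at gave -0.22 to 0.022 without 1 array, positive without SF1 replicate 1. Hpgd 1419905_s_at gave -0.051 with array weights and -0.17 to 0.23 without 1 array. Ptgs2 minus Hpgd gave -0.026 to 1.10 without 1 array, and negative without SF1 replicate 2.

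Over all probe sets, the replicate block left 2133 lower. A fold of at least 1.5 in addition left 1316 higher and 1049 lower, and an adjusted p under 0.01 left 1439 and 1536. Without 1 array there were 1757 to 2242 higher and 2014 to 2668 lower, the fewest without SF1 replicate 1. Of the other pathway genes, the block left 7 lower, the fold 3 higher and 5 lower, and the stricter p 1 and 5, while 4 to 8 were higher and 6 to 9 lower without 1 array. The block changed the call of no member but Ptger2. Signal over background was not tested, which bears most on the dim Ptger3 probe set.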
